A study of Homo sapiens with 18 samples.

Results

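The 45 genes described here encode the machinery of mitosis and the spindle. They were taken by gene symbol, from a list of mitotic genes, out of the 28395 genes of the deposited count table. All 45 were listed and all 45 had enough counts to be tested, among 14571 genes tested. RNA had been sequenced in 18 libraries from H929, MM1S and OPM2, 3 established human lines of multiple myeloma, a cancer of plasma cells. IKZF1, the gene of the transcription factor Ikaros, was knocked out in all 3 by doxycycline-inducible CRISPR-Cas9, and the controls had an empty vector. Both had been given doxycycline at 1 µg/mL for 72 h, which switches the guide RNA on. OPM2 was also studied with an inducible knockout of IKZF3, the gene of the related factor Aiolos, under the same doxycycline, and shared its empty vector cells with the IKZF1 comparison. OPM2 cells with lenalidomide at 10 µM for 72 h, a drug that directs Ikaros and Aiolos to degradation through the ubiquitin ligase receptor cereblon, were set beside untreated OPM2 cells. Empty vector and untreated cells therefore differed in both the vector and the doxycycline. Live cells had been sorted by light scatter before RNA extraction; the labels name no gate on the phase of the cell cycle. Each of the 9 groups had 2 libraries, and the sources used here do not say whether these came from separate cultures, guides or clones, so every p measures only the spread between these libraries. Knockout libraries are called a and b in the order of the table, since their column names carry no replicate number from the labels.

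Mitosis is started by CDK1 bound to cyclin B, which the CDC25 phosphatases switch on, and it is carried through by the Polo-like and Aurora kinases, by kinesin motors that build the spindle and by kinetochores that hold the chromosomes on it. The spindle checkpoint proteins hold the ubiquitin ligase APC/C inactive until all chromosomes are attached, after which CDC20 and UBE2C help it destroy cyclin B and securin and separase cuts the chromosomes apart. Most of these genes are transcribed late in the cell cycle, when the factors B-MYB, FOXM1 and NF-Y act on their promoters through the cell cycle genes homology region (CHR) and CCAAT boxes. The summed RNA of the group is therefore used as a measure of how many cells in a culture are dividing. In a bulk sample, fewer cells in mitosis and less RNA per cell cannot be told apart.

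The promoter letters that the group shares were looked up because its members moved together in several comparisons. RefSeq promoter windows of GRCh38.p14, from 250 bases before to 50 bases after the start, were matched for 38 of the 45 genes. AURKA, BIRC5, BUB3, TTK, UBE2C, TPX2 and FOXM1 were not matched. The CHR core, searched as TTTGAA or TTCGAA on both strands, was in a window of 30 of the 38 genes (78.9%), beside 19.5% of the 27305 genes of the table. The CCAAT box, searched as CCAAT on both strands, was in 32 of the 38 (84.2%), beside 39.7% of all genes. At least 2 CCAAT boxes were in 22 members (57.9%), beside 12.9% of all genes, and both motifs stood in 1 window in 26 members (68.4%), beside 7.85%. A match of one motif may share letters with a match of the other. These are matches of letters, not binding sites. The windows below belong to 5 genes whose values carry the results: 4 whose RNA was lower in several comparisons, and CDC25B, which went opposite ways in different lines. Each runs 5′ to 3′ on the strand of the gene, from 120 bases before to 30 bases after the start, with CHR cores and CCAAT boxes in capitals (ATTGG is CCAAT read on the other strand). The window of CDC25B is 1 of 4 of that gene.
CCNB1, chr5:69167030-69167179, plus strand: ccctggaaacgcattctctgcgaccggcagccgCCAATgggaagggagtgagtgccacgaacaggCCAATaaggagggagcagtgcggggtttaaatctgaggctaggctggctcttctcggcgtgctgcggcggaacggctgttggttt
PLK1, chr16:23678769-23678918, plus strand: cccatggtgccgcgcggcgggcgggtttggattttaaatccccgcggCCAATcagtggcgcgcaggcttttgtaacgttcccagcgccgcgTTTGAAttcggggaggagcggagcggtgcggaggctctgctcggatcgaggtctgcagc
CDC20, chr1:43358861-43359010, plus strand: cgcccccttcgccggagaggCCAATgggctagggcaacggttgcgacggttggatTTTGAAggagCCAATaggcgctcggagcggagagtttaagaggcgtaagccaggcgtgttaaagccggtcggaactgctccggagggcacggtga
ESPL1, chr12:53268179-53268328, plus strand: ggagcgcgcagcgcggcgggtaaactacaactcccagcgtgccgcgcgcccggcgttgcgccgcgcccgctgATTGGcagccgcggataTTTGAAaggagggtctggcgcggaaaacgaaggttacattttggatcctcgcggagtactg
CDC25B, chr20:3796190-3796339, plus strand: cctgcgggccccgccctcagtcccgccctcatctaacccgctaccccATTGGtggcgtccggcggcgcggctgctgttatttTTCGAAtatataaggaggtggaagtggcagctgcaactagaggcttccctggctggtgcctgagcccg
CCNB1 thus held 2 CCAAT boxes and no CHR core by these letters, while PLK1, CDC20, ESPL1 and the shown window of CDC25B held both motifs. Of the other 3 windows of CDC25B, 1 held a CCAAT box only and 2 held neither motif.

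Library totals lay between 11.8 and 24.19 M counts, and the 45 genes together took 0.432% to 0.826% of them. The lowest count of any member in any library was 148, of CDC25C. Plasma cell markers other than CD38 were high in all 18 libraries. XBP1 ran from 688 to 4460 CPM, the count relative to the scaled library size. MZB1, with the lowest minimum of these, ran from 104 to 915 CPM. CD38 ran from 10.8 to 435 CPM, with a median of 28.4. The B cell marker MS4A1 was at 0 in all 18 libraries. Of the 17 markers of T and NK cells, myeloid cells, B cells, epithelium or stroma and red cells, 2 reached 10 CPM: CD3E in H929, where the 4 T and NK cell markers summed to 30.2 to 43.9 CPM, and HBB with up to 18.6 CPM. IKZF1 RNA was not lower in the libraries labelled IKZF1 knockout. It was at 128 and 120 CPM in H929 empty vector and 124 and 188 in the knockout, at 179 and 185 against 312 and 333 in MM1S, and at 94.3 and 188 against 213 and 225 in OPM2, and it was called higher in MM1S (0.83 ± 0.23) and OPM2 (0.63 ± 0.23). IKZF3 RNA was at 44.0 and 50.3 CPM in OPM2 empty vector and 69.3 and 66.6 in the IKZF3 knockout. Counts per gene do not show whether an edit broke the reading frame, so these levels check neither knockout, and every direction below rests on the labels. OPM2 empty vector replicate 1 stood apart: 1638 of the tested genes, 6 of the 45 among them, differed more than 2-fold from replicate 2, against 258 to 980 genes and no member in the other groups. Its scaling factor was 0.860, the lowest of all libraries. The counts of called members in the OPM2 knockouts are given with and without it. Most values between lines, and the medians by role, are given only with it.

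All 45 genes were expressed in every control group. In the authors' deposited table of log2 FPKM values, which are per length and have each control group merged into 1 value, the 45 had a median level of 4.84 in H929 empty vector, 4.995 in MM1S empty vector, 5.20 in OPM2 empty vector and 5.63 in untreated OPM2, against 1.75 to 1.84 for all genes listed. All 45 lay above that all-gene median in each of the 4 merged columns. In the authors' deposited table the ubiquitin-conjugating enzyme UBE2C was highest in H929 at 7.11, the checkpoint protein BUB3 in MM1S at 6.76, and the kinase PLK1 in OPM2 empty vector at 7.31 and in untreated OPM2 at 7.22. At the low end, that table put the kinetochore motor CENPE at 2.13 in H929 and 2.05 in OPM2 empty vector, and the phosphatase CDC25C at 2.50 in MM1S and 2.52 in untreated OPM2.

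**Figure D1:**
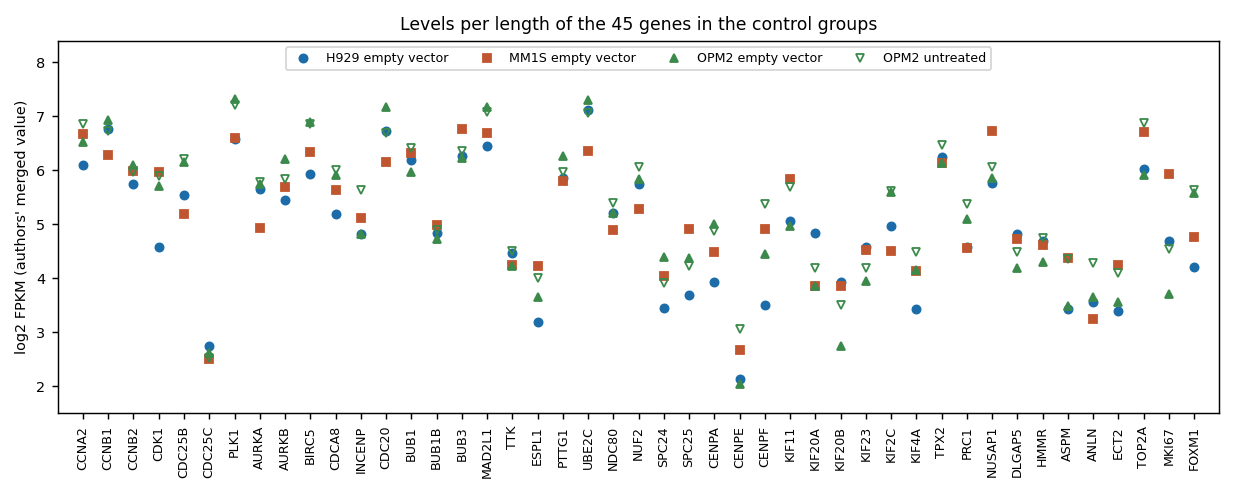
Levels per length of the 45 genes in the 4 control groups, as log2 FPKM merged over replicates by the authors (y axis), with the genes on the x axis in order of role. UBE2C, PLK1 and MAD2L1 lie near the top and CDC25C and CENPE near the bottom in the 4 groups, and CDK1 in H929 and MKI67 in MM1S lie away from the other lines.

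Levels of single mitotic genes differed between the 3 lines. Between H929 and MM1S empty vector cells, 8 members were higher in H929 (17.8%, beside 32.9% of all tested genes) and 17 lower (37.8%, beside 30.3%). Between H929 and OPM2, 6 were higher in H929 (13.3%, beside 32.4%) and 22 lower (48.9%, beside 32.2%), and between MM1S and OPM2, 13 were higher in MM1S (28.9%, beside 32.8%) and 16 lower (35.6%, beside 34.7%). These calls came from the quasi-likelihood test of edgeR at an adjusted p below 0.05 (Benjamini-Hochberg over all 14571 genes), as do all adjusted p-values below, and fold changes are log2 ± SE. CDK1, the kinase of mitotic entry, was at 78.7 and 83.6 CPM in H929 against 211 and 207 in MM1S, a difference of -1.37 ± 0.14 (adjusted p = 6.66e-07, edgeR). CDK1 was also lower in H929 than in OPM2, with a difference of -1.18 ± 0.14. The proliferation marker MKI67 was at 687 and 696 CPM in MM1S and 132 and 214 in OPM2 empty vector. These lines were 1.99 ± 0.20 apart (adjusted p = 5.11e-07, edgeR), and 1.72 apart with OPM2 empty vector replicate 1 left out. In untreated OPM2 cells MKI67 was higher, at 295 and 336 CPM, and the difference from MM1S was not tested with that control. FOXM1, the transcription factor of late cell cycle genes, was at 67.4 and 69.9 CPM in H929 and 184 and 190 in OPM2, a difference of -1.45 ± 0.13. BIRC5 (survivin, of the chromosomal passenger complex) differed between these lines by -1.197 ± 0.15 and PLK1 by -0.95 ± 0.13. Separase, ESPL1, was lower in H929 than in MM1S, with a difference of -0.999 ± 0.14, as was the kinetochore subunit SPC25 with -1.19 ± 0.17, and AURKA was higher with 0.71 ± 0.12. Between MM1S and OPM2 the microtubule depolymerase KIF2C differed by -1.24 ± 0.13, CDC25B by -1.16 ± 0.12 and AURKA by -0.89 ± 0.12. Apart from MKI67, the differences from OPM2 given here include its empty vector replicate 1. In replicates 1 and 2 of that group BIRC5 was at 418 and 319 CPM, PLK1 at 433 and 365, KIF2C at 205 and 167, CDC25B at 369 and 319, and AURKA at 146 and 142.

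Within lines, the 45 genes made small, mostly uncalled moves. In MM1S, 40 of the 45 fold changes after IKZF1 knockout were below 0 (88.9%, against 47.7% of all tested genes) with a median of -0.27, while the median of all tested genes was 0.00. Under lenalidomide in OPM2, 41 of 45 were below 0 (91.1%, against 48.3%) with a median of -0.22, and the median of all genes was again 0.00. In H929, 39 of 45 were below 0 (86.7%, against 53.8%) with a median of -0.15, and all genes had a median of -0.03. In OPM2 the knockouts split the group: 23 fold changes were below 0 and 22 above for IKZF1 knockout, and 21 and 24 for IKZF3 knockout, with medians of 0.00 and 0.03. The members vary together across libraries, so these counts of signs are a description and carry no test.

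**Figure D2:**
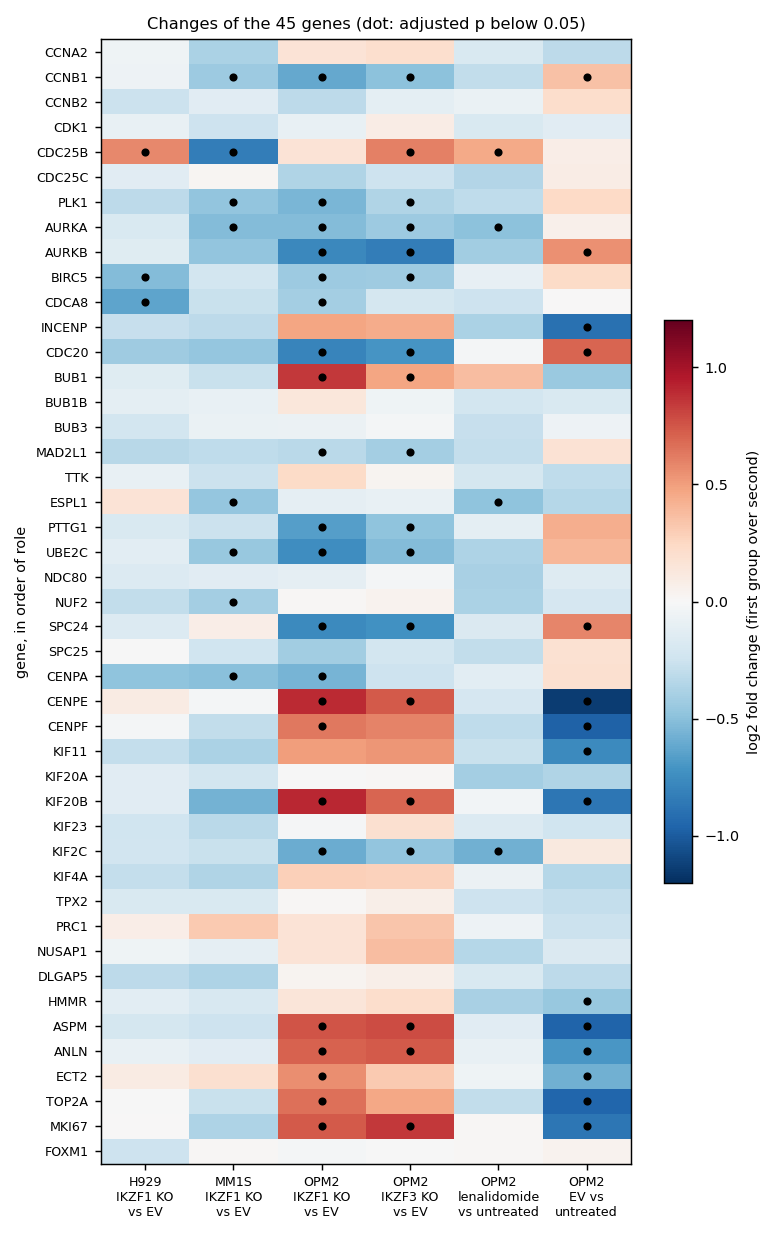
Log2 fold changes of the 45 genes (rows, in order of role) in 6 comparisons (columns), from blue for lower to red for higher in the first group, with a dot where the adjusted p was below 0.05. The MM1S and lenalidomide columns are mostly pale blue with few dots, the OPM2 knockout columns hold 22 and 18 dots in both colours, and the column of empty vector against untreated OPM2, which shares the empty vector libraries with them, holds 15.

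The mean log2 CPM of the 45 genes showed which libraries carried these moves. It was 6.60 and 6.64 in H929 empty vector and 6.29 and 6.62 in knockout libraries a and b, so only library a lay below both controls. Of the 45 genes, 44 were higher in library b than in a, by a median of 0.336. In MM1S it was 6.83 and 6.83 in empty vector and 6.67 and 6.45 in the knockout, both below the controls, and 43 of 45 genes were lower in library b than in a, with a median difference of -0.241. In OPM2 it was 6.70 and 6.99 in empty vector, 6.84 and 6.91 in IKZF1 knockout, 6.94 and 6.91 in IKZF3 knockout, 7.03 and 7.11 in untreated cells and 6.87 and 6.85 under lenalidomide. The lenalidomide libraries lay below both untreated ones, and the OPM2 knockout libraries lay between the 2 empty vector libraries.

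**Figure D3:**
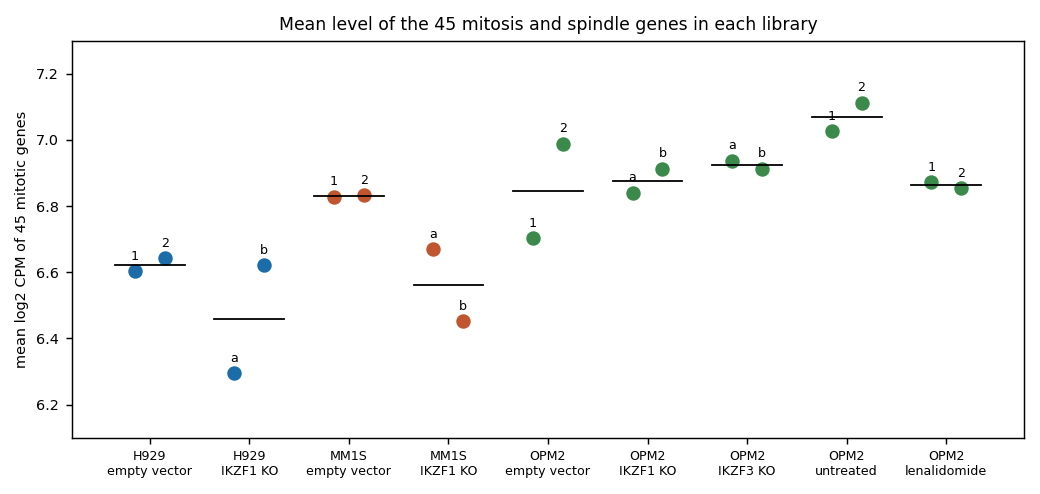
Mean log2 CPM of the 45 genes in each of the 18 libraries (points, with their replicate number or letter) and the mean of each group of 2 (line). H929 knockout library a, at 6.29, and OPM2 empty vector replicate 1, at 6.70, lie away from their partners, and the MM1S and lenalidomide groups do not overlap with their controls.

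In H929, IKZF1 knockout changed 3 of the 45 genes: 1 was called higher (2.22%, beside 5.92% of all tested genes) and 2 lower (4.44%, beside 4.60%), shares at or under the background. CDC25B, a phosphatase that activates CDK1, was at 196 and 188 CPM in empty vector and 320 and 251 in the knockout libraries, which did not overlap, a rise of 0.57 ± 0.12 (adjusted p = 0.00715, edgeR). CDCA8 (borealin, a subunit of the chromosomal passenger complex) was at 90.9 and 89.99 against 53.3 and 63.6 CPM and changed by -0.63 ± 0.12 (adjusted p = 0.0026, edgeR). BIRC5, of the same complex, fell from 161 and 160 to 97.1 and 128 CPM, a log2 change of -0.52 ± 0.15 (adjusted p = 0.0347, edgeR). The other panel genes were not called, with fold changes from -0.48 ± 0.15 for the centromeric histone CENPA to 0.16 ± 0.14 for ESPL1. CCNB1 was at 224 and 232 against 205 and 234 CPM and MKI67 at 350 and 346 against 301 and 397, and in both the groups overlapped. Both knockout libraries lay below both controls for 18 of 45 genes (40.0%, beside 33.2% of all tested genes). Without library a the median fold change was 0.01, and without library b it was -0.34. CDCA8 was called in all 12 of the alternatives run for it, CDC25B in 9 and BIRC5 in 8. Over these alternatives the change of CDC25B ran from 0.39 to 0.74 and that of BIRC5 from -0.73 to -0.33. Leaving out either OPM2 empty vector library takes the spread of that group out of the estimate that all comparisons share. Without OPM2 empty vector replicate 1, which adds to the spread that all comparisons share, 9 members were called, 8 of them lower (20.0% called, beside 22.4% of all tested genes).

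In MM1S, IKZF1 knockout lowered 8 of the 45 genes and raised none (17.8% lower, beside 12.6% of all tested genes, and 0 higher, beside 15.6%). They span mitotic entry, the kinases, chromosome separation and the kinetochore. CDC25B was at 150 and 159 CPM in empty vector and 86.0 and 87.5 in the knockout, a change of -0.83 ± 0.13 (adjusted p = 2e-04, edgeR). CCNB1, cyclin B1, fell from 169 and 163 to 135 and 110 CPM, a log2 change of -0.44 ± 0.12 (adjusted p = 0.0118, edgeR). AURKA, the kinase of spindle poles, fell from 79.2 and 76.2 to 58.3 and 50.2 CPM, a log2 change of -0.52 ± 0.12 (adjusted p = 0.00427, edgeR), and PLK1 from 212 and 210 to 167 and 138 CPM, a log2 change of -0.47 ± 0.12. In each of these 4 genes both knockout libraries lay under both controls. ESPL1 (-0.47 ± 0.14) and UBE2C (-0.46 ± 0.15) were lower as well, and at the kinetochore CENPA (-0.51 ± 0.15) and NUF2, a subunit of the complex that grips microtubules (-0.40 ± 0.13). Of the panel genes that were not called, CDC20 was at 119 and 114 against 86.9 and 82.6 CPM (-0.46 ± 0.17, adjusted p = 0.0515, edgeR), AURKB at -0.47 ± 0.19 and MKI67 at -0.37 ± 0.19. FOXM1 was at 94.8 and 101 against 100 and 97.4 CPM, with overlapping groups. Both knockout libraries lay below both controls for 34 of the 45 genes (75.6%, beside 35.6% of all tested genes).

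Which of the MM1S genes were called depended on the libraries in the fit. Without OPM2 empty vector replicate 1, 23 members were lower (51.1%, beside 20.2% of all tested genes), among them KIF20B, CDC20 and AURKB, and in a fit of the 4 MM1S libraries alone 30 were lower (66.7%, beside 24.2%). Without OPM2 empty vector replicate 2 in its place, 24 were lower (53.3%, beside 20.7%). Without MM1S empty vector replicate 1 or 2, 2 and 4 were called, and without knockout library a or b, 6 and 1. For the fits that leave out an MM1S library the share of all tested genes is not given, so these counts describe the settings only. CDC25B was called in all 12 of the alternatives run for it, AURKA in 11, and CCNB1 and PLK1 in 10 each. ESPL1, UBE2C, NUF2 and CENPA were called in 8 of 12 each.

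Lenalidomide in OPM2 lowered 3 of the 45 genes and raised 1 (6.67% lower, beside 4.58% of all tested genes, and 2.22% higher, beside 5.76%), shares close to the background. KIF2C, a kinesin that corrects wrong attachments by taking microtubules apart, was at 164 and 179 CPM untreated and 116 and 113 with the drug, a change of -0.58 ± 0.13 (adjusted p = 0.0094, edgeR). AURKA fell from 138 and 138 to 95.5 and 101 CPM, a log2 change of -0.49 ± 0.12 (adjusted p = 0.0134, edgeR), and ESPL1 from 106 and 111 to 75.02 and 80.6 CPM, a log2 change of -0.48 ± 0.14. CDC25B rose from 327 and 322 to 430 and 462 CPM, a log2 change of 0.46 ± 0.12 (adjusted p = 0.0276, edgeR). None of these 4 overlapped between groups. Panel genes that were not called included AURKB (86.1 and 81.0 against 61.8 and 63.4 CPM, -0.42 ± 0.19), NDC80 (82.8 and 100.1 against 68.7 and 71.0 CPM, -0.39 ± 0.15) and PLK1 (335 and 342 against 266 and 281 CPM, -0.30 ± 0.12). CDC20 was at 170 and 172 against 162 and 175 CPM and MKI67 at 295 and 336 against 340 and 296 CPM, with overlapping groups. Both drug libraries lay under both controls for 33 of 45 genes (73.3%, beside 32.5% of all tested genes). Without OPM2 empty vector replicate 1, a library this comparison does not use, 15 members were lower (33.3%, beside 10.9%). Without replicate 2 of that group 17 were called in either direction (37.8%, beside 22.4%). In a fit of the 4 libraries alone 28 were lower (62.2%, beside 19.3%). Leaving out any 1 of the 4 left fewer members called by edgeR than the main fit, and the share of all tested genes is not given for these fits.

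In OPM2, each knockout set against empty vector lowered one set of mitotic genes and raised another. IKZF1 knockout raised 9 (20.0%, beside 16.2% of all tested genes) and lowered 13 (28.9%, beside 20.0%). IKZF3 knockout raised 7 (15.6%, beside 16.2%) and lowered 11 (24.4%, beside 20.6%). The 2 comparisons share the empty vector libraries, so their values are given side by side and are not independent. In fits of only the 4 libraries compared, edgeR called none of the 45 for either knockout, with 10 and 4 at an unadjusted p below 0.05, while DESeq2 on all libraries called 23 and 22. The share of all tested genes is not given for these alternatives. Of the cyclins, kinases and anaphase genes, CCNB1 was at 311 and 275 CPM in empty vector, 185 and 199 in IKZF1 knockout (-0.61 ± 0.12, adjusted p = 0.00192, edgeR) and 211 and 206 in IKZF3 knockout (-0.49 ± 0.12). AURKA was at 146 and 142 CPM, then 105 and 96.3 (-0.52 ± 0.12) and 107 and 105 (-0.44 ± 0.12). Its empty vector replicates were close, and the groups did not overlap. CDC20, the APC/C activator, was at 335 and 220 CPM in empty vector, 169 and 151 in IKZF1 knockout (-0.79 ± 0.16, adjusted p = 0.00291, edgeR) and 166 and 173 in IKZF3 knockout (-0.71 ± 0.16). PLK1, AURKB, BIRC5, MAD2L1, PTTG1 (securin), UBE2C, SPC24 and KIF2C were also lower in both, and CDCA8 and CENPA in IKZF1 knockout.

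The genes that rose in OPM2 act at the kinetochore, the spindle, the cleavage furrow and the chromosomes. BUB1, a checkpoint kinase, was at 188 and 280 CPM in empty vector, 380 and 463 in IKZF1 knockout (0.85 ± 0.18, adjusted p = 0.00286, edgeR) and 314 and 335 in IKZF3 knockout (0.47 ± 0.18). TOP2A, which untangles DNA before chromosomes part, was at 223 and 497 CPM in empty vector, 577 and 561 in IKZF1 knockout (0.66 ± 0.24, adjusted p = 0.0461, edgeR) and 494 and 502 in IKZF3 knockout (0.47 ± 0.24, not called), where the groups overlapped. MKI67 was at 132 and 214 CPM, then 269 and 310 (0.74 ± 0.19) and 288 and 336 (0.85 ± 0.19). CENPE, KIF20B, ASPM and ANLN were called higher in both comparisons, CENPF and ECT2 in that of IKZF1. Most of these rises did not hold their direction against untreated cells. There 6 of the 9 members called higher for IKZF1 knockout and 4 of the 7 for IKZF3 knockout were below 0. All of those called lower stayed below 0, as did most members, called or not. Those called lower ran from -0.48 (KIF2C) to -0.099 (CDC20) in IKZF1 knockout. In IKZF3 knockout they ran from -0.38 (AURKA) to -0.014 (CDC20). AURKA, CDCA8 and KIF2C remained called, for IKZF1 knockout only. CDC25B was at 369 and 319 CPM in empty vector, 363 and 409 in IKZF1 knockout (0.17 ± 0.12, not called) and 515 and 531 in IKZF3 knockout (0.61 ± 0.12, adjusted p = 0.00247, edgeR). Panel genes that were called in neither were CCNA2, CDK1, BUB1B, TTK, ESPL1, NDC80, KIF11, KIF20A, TPX2 and FOXM1, with fold changes from -0.11 for NDC80 and ESPL1 to 0.50 for KIF11 after IKZF1 knockout.

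**Figure D4:**
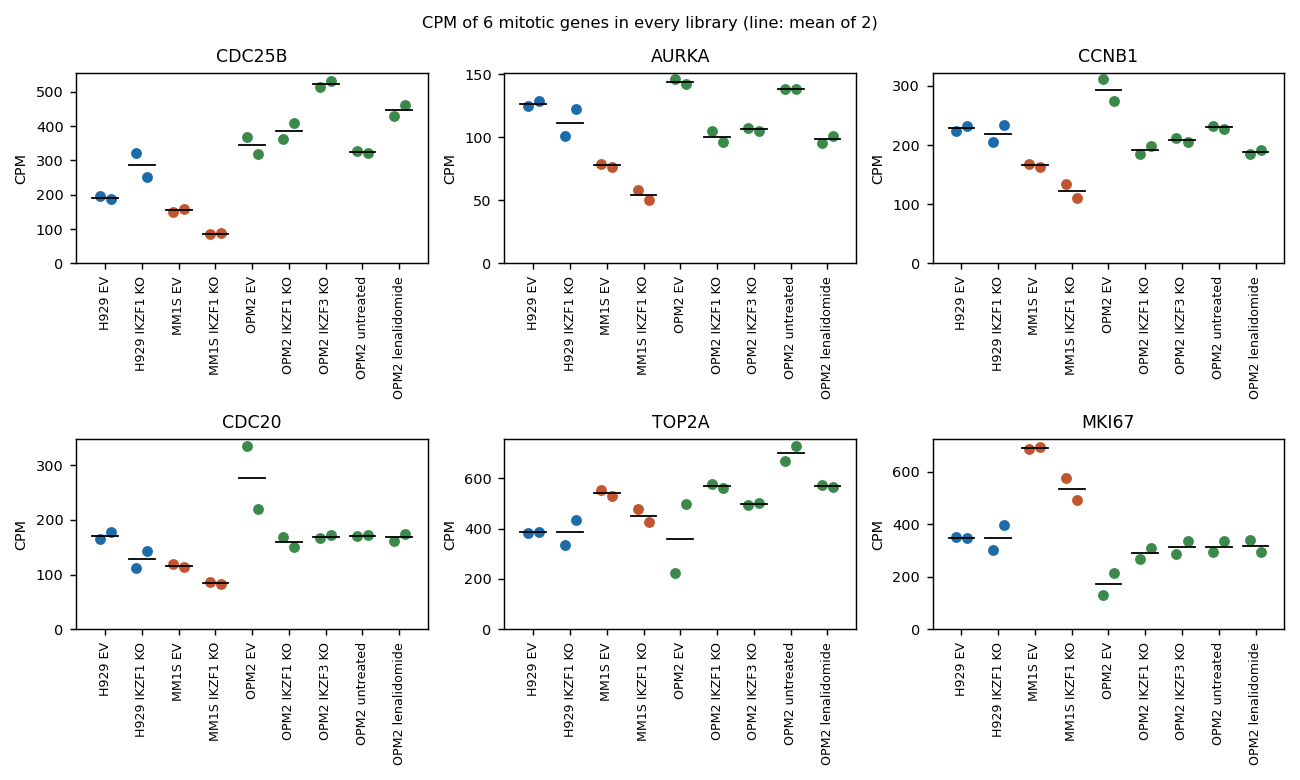
CPM of CDC25B, AURKA, CCNB1, CDC20, TOP2A and MKI67 in every library (points) with the mean of each group of 2 (line), by group on the x axis. CDC25B moves up in H929 and down in MM1S, AURKA is lower in the MM1S and OPM2 knockouts and under lenalidomide, and for CDC20, TOP2A and MKI67 the OPM2 empty vector libraries lie apart from the untreated ones.

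The OPM2 knockout calls depended on the control libraries. Set against untreated cells, empty vector cells had 4 members higher (8.89%, beside 19.5% of all tested genes), CCNB1, AURKB, CDC20 and SPC24, and 11 lower (24.4%, beside 15.8%), CENPE (-1.13 ± 0.26, adjusted p = 0.00493, edgeR), CENPF, TOP2A, ASPM, KIF20B, INCENP, MKI67, KIF11, HMMR, ECT2 and ANLN. CENPE was at 63.8 and 80.5 CPM in untreated cells, 20.3 and 44.7 in empty vector, 56.7 and 65.1 in IKZF1 knockout and 54.3 and 55.4 in IKZF3 knockout. Its knockout values thus lay above the empty vector and, but for 1 library, below the untreated cells. In what follows, counts by unadjusted p or by DESeq2 have no share of all tested genes beside them and describe the settings only. Without empty vector replicate 1, 1 member was higher than in untreated cells (2.22%, beside 10.9%), CDC20, and 7 were lower (15.6%, beside 10.6%), and a fit of these 4 libraries alone called none by edgeR, with 6 at an unadjusted p below 0.05 (DESeq2 on all libraries called 18). Without empty vector replicate 1, IKZF1 knockout had 3 members higher (6.67%, beside 11.4%), BUB1, KIF20B and ASPM, and 9 lower (20.0%, beside 10.3%), CCNB1, PLK1, AURKA, CDCA8, CDC20, MAD2L1, UBE2C, CENPA and KIF2C. IKZF3 knockout then had 3 higher (6.67%, beside 12.7%), CDC25B, ASPM and MKI67, and 5 lower (11.1%, beside 11.4%), CCNB1, AURKA, AURKB, CDC20 and MAD2L1. Without empty vector replicate 2 in place of replicate 1, 33 members were called for each knockout (73.3%, beside 54.8% of all tested genes for IKZF1 and 55.0% for IKZF3).

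With untreated cells in place of empty vector, a comparison in which doxycycline differs too, IKZF1 knockout had no member higher (beside 4.08% of all tested genes) and 3 lower (6.67%, beside 3.69%): AURKA at -0.46 (adjusted p = 0.0241, edgeR), CDCA8 at -0.40 and KIF2C at -0.48. IKZF3 knockout had 1 higher (2.22%, beside 3.74%), CDC25B at 0.69 (adjusted p = 0.00279, edgeR), and none lower (beside 4.53%). Of the members called higher against empty vector, those below 0 against untreated cells were CENPE (-0.24), CENPF (-0.34), ASPM (-0.20), ECT2 (-0.02), TOP2A (-0.30) and MKI67 (-0.13) for IKZF1 knockout. For IKZF3 knockout they were CENPE (-0.39), KIF20B (-0.17), ASPM (-0.18) and MKI67 (-0.016), and none of these values was called. Over all 45 genes, called or not, the sign differed between the 2 controls for 19 in IKZF1 and 21 in IKZF3 knockout. With replicate 1 also left out of the fit, 1 member was higher (2.22%, beside 10.8%) and 11 lower (24.4%, beside 9.94%) for IKZF1 knockout. For IKZF3 knockout 1 was higher (2.22%, beside 11.4%) and 9 lower (20.0%, beside 10.7%). AURKA was lower and called in both of these fits, at -0.46 and -0.38. Median fold changes against untreated cells were -0.22 and -0.16, with 40 and 38 of 45 below 0.

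The split between falling and rising genes in OPM2 went with transcript length. Summed exon length of the 45 genes, from the GENCODE v29 annotation, ran from 1151 bases for PTTG1 to 12678 for MKI67. Across the 45 genes the fold change of IKZF1 knockout against empty vector had a Spearman correlation with length of 0.759 (0.448 over 14121 genes with a length), and that of IKZF3 knockout 0.709 (0.408 over all). Among the 22 shorter members IKZF1 knockout had 0 called higher and 12 lower, and among the 23 longer 9 higher and 1 lower. For IKZF3 knockout these counts were 0 and 10, then 7 and 1. The difference between the 2 empty vector libraries, replicate 2 minus replicate 1, had a correlation of 0.749 over the same genes, and empty vector against untreated one of -0.765. Without replicate 1 the knockout correlations were 0.697 and 0.547, and against untreated cells 0.215 and -0.263. In the other main comparisons they were 0.289 in H929, 0.143 in MM1S and 0.223 under lenalidomide. IKZF1 against IKZF3 knockout, which uses no empty vector library, had 0.532 (0.068 over all genes). Between empty vector cells it was -0.318 for H929 against MM1S, 0.365 for H929 against OPM2 and 0.555 for MM1S against OPM2. For differences of IKZF1 effects it was 0.051, -0.687 and -0.707 in the same order. For the lenalidomide effect against the IKZF1 effect it was -0.723. These correlations run over genes of the same libraries, which are not independent, and the part of transcript length or RNA quality in the OPM2 calls was not tested.

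**Figure D5:**
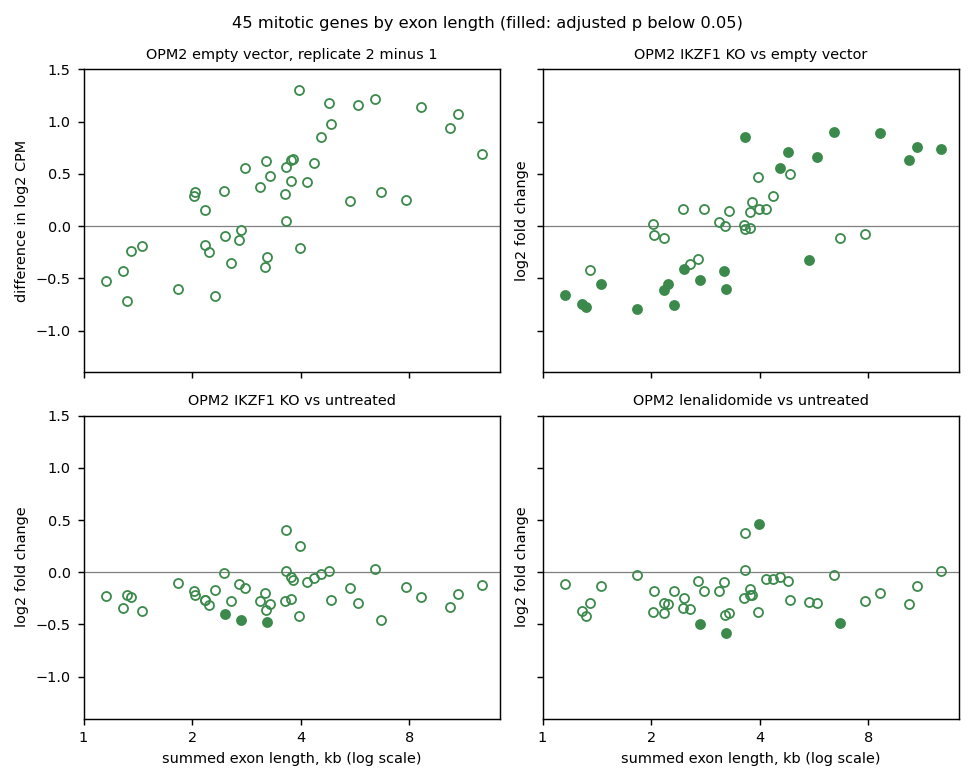
Log2 fold change or replicate difference of the 45 genes (y axis) against summed exon length in kb (x axis, log scale), with filled points for an adjusted p below 0.05. The points climb with length between the 2 OPM2 empty vector libraries and in IKZF1 knockout against empty vector, with Spearman correlations of 0.749 and 0.759, and lie nearly flat and mostly below 0 against untreated cells and under lenalidomide.

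The response of CDC25B differed between lines. Its IKZF1 knockout effect in H929 was 1.41 ± 0.18 above that in MM1S (adjusted p = 8.56e-05, edgeR), and the effect in MM1S minus that in OPM2 was -0.9996 ± 0.18 (adjusted p = 0.00174, edgeR). Between H929 and MM1S, 2 members had a higher effect in H929 (4.44%, beside 6.94% of all tested genes), CDC25B and ESPL1 (0.63 ± 0.20), and none a lower one (beside 8.91%). For H929 set against OPM2, CCNB1 was higher in H929 (2.22%, beside 6.51%), by 0.55 ± 0.17, and BUB1 lower (2.22%, beside 6.14%), by -0.996 ± 0.25. Between MM1S and OPM2, SPC24 was higher in MM1S (2.22%, beside 11.8%), by 0.84, and 5 members were lower (11.1%, beside 8.94%): CDC25B, BUB1, MKI67, KIF20B and ASPM. Without OPM2 empty vector replicate 1 the last 4 were at -0.88, -0.83, -1.02 and -0.59 and remained called, and SPC24 was at 0.45 and was not. CDC25B was then at -1.13. In OPM2 IKZF1 knockout against untreated cells, CDC25B was at 0.25, BUB1 at 0.41, MKI67 at -0.13, KIF20B at 0.03 and ASPM at -0.20. SPC24 was at -0.17 there, and none of these values was called. The difference from MM1S was not tested with that control. By exon length the 5 lower members were among the longer and SPC24 among the shorter. Over the 45 genes the difference of effects had a Spearman correlation with length of -0.707.

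No member was called between IKZF1 and IKZF3 knockout in OPM2, where 1.71% of all tested genes were higher and 0.885% lower. In edgeR's test 2 members had an unadjusted p below 0.05, and the DESeq2 Wald test called 1. The fold changes ran from -0.44 ± 0.12 for CDC25B (adjusted p = 0.0822, edgeR) to 0.38 ± 0.17 for BUB1. Without OPM2 empty vector replicate 1, CDC25B was called at -0.44 (adjusted p = 0.00566, edgeR). No member was called between the effects of lenalidomide and of IKZF1 knockout in OPM2 either (beside 0.0686% of all tested genes higher and 0.213% lower), with 15 at an unadjusted p below 0.05 in edgeR and 6 called by DESeq2. CDC20 had the smallest p there, at 0.77 ± 0.23. For unadjusted p and for DESeq2 the share of all tested genes is not given in either comparison, so those counts describe the settings only. A p above the threshold does not show that the effects were alike.

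By role, the kinases and passenger proteins had the lowest median of the role groups with 6 or more genes in each of the 5 main comparisons. The medians of these 6 genes (PLK1, AURKA, AURKB, BIRC5, CDCA8 and INCENP) were -0.29 in H929, -0.39 in MM1S, -0.48 and -0.40 in the OPM2 IKZF1 and IKZF3 knockouts and -0.34 under lenalidomide. In that order, 2, 2, 5, 4 and 1 of them were called lower and none higher. Of all tested genes, 4.60%, 12.6%, 20.0%, 20.6% and 4.58% were called lower, and 5.92%, 15.6%, 16.2%, 16.2% and 5.76% higher. The cyclins, CDK1 and its phosphatases, also 6 genes and with CDC25B among them, were ranked too, but their medians are not given. The 6 kinesins had medians of -0.24, -0.34, 0.14, 0.23 and -0.22, and the 9 checkpoint and anaphase genes of -0.15, -0.27, -0.11, -0.09 and -0.22. The 6 spindle assembly genes were at -0.15, -0.19, 0.15, 0.27 and -0.22, and the 7 kinetochore genes at -0.16, -0.24, -0.11, -0.02 and -0.29. The OPM2 knockout medians use both empty vector libraries. PLK1, AURKA, AURKB, BIRC5 and CDCA8 are among the shorter members and INCENP among the longer, and the part of length in these medians was not tested. Against untreated cells the 6 kinases and passenger proteins ran from -0.46 (AURKA) to -0.20 (BIRC5) in IKZF1 knockout. In IKZF3 knockout they ran from -0.45 (INCENP) to -0.13 (PLK1). FOXM1 was not called in any of the 5, with fold changes from -0.24 ± 0.13 in H929 to 0.02 ± 0.13 under lenalidomide. MAD2L1, which holds CDC20 at unattached kinetochores, was lower in both OPM2 knockouts (-0.33 ± 0.12 and -0.41 ± 0.12) and at -0.34, -0.30 and -0.29 in H929, MM1S and lenalidomide, not called. TTK, the kinase that starts the checkpoint, was called nowhere, at -0.09, -0.26, 0.23, 0.03 and -0.22 in the same order as the medians.

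Other genes of the cell cycle are given by lists kept apart from the 45, each with its share called and that of all tested genes. Of 44 DNA replication genes, 24 were lower in MM1S (54.5%, beside 12.6%) and none higher (beside 15.6%), with a median of -0.42, among them the sliding clamp PCNA (-1.73 ± 0.13, adjusted p = 3.86e-07, edgeR) and GINS1 (-1.42 ± 0.13). This list had 0 called in H929 (beside 5.92% higher and 4.60% lower, median -0.11) and 4 lower under lenalidomide (9.09%, beside 4.58%), with SLBP at -0.75 ± 0.12. Its 16 lower genes in OPM2 IKZF1 knockout (36.4%, beside 20.0%) became 7 without empty vector replicate 1 (15.9%, beside 10.3%), and 1 was lower and 1 higher against untreated cells. Its 12 lower and 2 higher in IKZF3 knockout (27.3%, beside 20.6%, and 4.55%, beside 16.2%) became 2 lower and 1 higher without replicate 1.

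The other lists held fewer calls in MM1S, with shares of lower genes between 11.1% and 20.0% beside 12.6% of all tested genes. The 17 genes of the APC/C and its partners had 1 higher and 3 lower there (17.6%), where the ubiquitin-conjugating enzyme UBE2S fell by 0.87 ± 0.21, and 0 called in H929 and under lenalidomide. Of 35 other kinetochore and centromere genes, 1 was higher and 6 lower in MM1S (17.1%), 2 were lower in H929 (CENPO and HJURP, 5.71%, beside 4.60%), and 3 under lenalidomide (8.57%, beside 4.58%), where SKA1 fell by 0.77 ± 0.11. Of 36 other spindle genes, 2 were higher and 4 lower in MM1S (5.56%, beside 15.6%, and 11.1%), where PIMREG rose by 1.98 ± 0.20. Under lenalidomide 1 of the 36 was called, PIMREG, lower with -0.79 ± 0.18. Among 21 regulators of mitotic transcription, 4 were lower and none higher in MM1S (19.0%), with E2F2 at -1.198 ± 0.15 and the CCAAT-binding subunit NFYB at -0.71 ± 0.14, and none were called in H929 or under lenalidomide.

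The 22 condensin and cohesin genes had 1 higher and 3 lower in MM1S (4.55%, beside 15.6%, and 13.6%). In OPM2 IKZF1 knockout 8 were higher (36.4%, beside 16.2%) and 2 lower (9.09%, beside 20.0%), with NIPBL at 1.16 ± 0.25. Without empty vector replicate 1, 5 were higher (22.7%, beside 11.4%) and 1 lower, and against untreated cells none was called by edgeR, with a median of -0.10. Of 15 brakes on entry to mitosis, 3 were higher in H929 (20.0%, beside 5.92%), where GADD45B rose by 1.29 ± 0.20 and the CDK inhibitor CDKN1A by 0.67 ± 0.14. In MM1S 2 of these were higher (13.3%, beside 15.6%), BTG1 (1.12 ± 0.13) and BTG2 (0.73 ± 0.12), and 3 lower (20.0%). Under lenalidomide 3 were higher (20.0%, beside 5.76%) and 2 lower (13.3%, beside 4.58%), with GADD45A at 0.99 ± 0.21 and BTG2 at -1.23 ± 0.12. In OPM2, 4 were higher (26.7%, beside 16.2%) and 3 lower (20.0%, beside 20.0%) after IKZF1 knockout, with CDKN1A at 1.24 ± 0.14 and GADD45A at 1.43 ± 0.22. Against untreated cells 2 of the 15 were higher (13.3%, beside 4.08%) and 2 lower (13.3%, beside 3.69%). Empty vector cells themselves had 2 of the 15 higher and 7 lower than untreated cells (13.3%, beside 19.5%, and 46.7%, beside 15.8%).

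Over the 18 libraries the members were not a single block. The 990 pairs had a median Pearson correlation of 0.264 in log2 CPM, from -0.843 to 0.982. CCNA2, cyclin A2, followed the mean of the other 44 most closely, with r = 0.95, and KIF4A was next with 0.92. CDC25C had r = -0.39 and KIF20A -0.33. These libraries share cell lines and, in OPM2, the empty vector replicate that stood apart, so the values are a description. CDC25B had the widest spread of the 45, with a SD of 0.81 in log2 CPM over libraries and a range from 6.43 to 9.05, and BUB1B the narrowest, with 0.17. PTTG1 has near-identical copies in the genome, and the sources do not say whether reads that match several places were counted, so its value is less certain.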

How the data were processed

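RNA-seq of 18 libraries was available as 2 tables. The first holds the raw count per gene, made with Subread and featureCounts on GRCh38 (hg38) per the submitters' processing notes, with no versions; the annotation, the strand setting and the treatment of reads with several places are not given in the sources used here. The second is the authors' deposited table of log2 FPKM with control replicates merged, used for levels per length only. Counts were fitted in edgeR 4.0.16 (R 4.3.3; filterByExpr, TMM scaling, robust quasi-likelihood test, 9 groups in 1 model, 9 residual degrees of freedom, Benjamini-Hochberg over 14571 genes, threshold 0.05) as designed from the labels, and the procedure was tested on simulated counts. CPM uses the scaled library size. SE is the size of the log2 fold change divided by the square root of F. Rows without a symbol (385) were kept. Alternatives were DESeq2 1.42.0, limma 3.58.1 voom, other scaling and filters, compared groups alone, a threshold of 0.01, each library left out, and untreated in place of empty vector cells; the last of these without OPM2 empty vector replicate 1 in the fit was chosen after seeing the data. The members and lists were chosen with earlier results of these data known. Named were a fixed panel of 22 members, up to 8 called members with the smallest p and up to 3 called against the majority in each comparison within a line, up to 4 in comparisons between lines or effects, and up to 2 called genes with the smallest p of each related list; other called members are named so that all are accounted for. With 2 libraries a group, an exact permutation test of a single value has a smallest p of 0.333 and was not used.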

Additional observations from a re-analysis of the deposited data

Results flagged for a closer look

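The response to IKZF1 knockout differed between lines in 10 tests of single members, by edgeR's quasi-likelihood test of the difference of 2 log2 fold changes. Between H929 and MM1S 2 members were called: CDC25B, the phosphatase that activates CDK1, at 1.41, up in both H929 knockout libraries and down in both MM1S ones, and separase ESPL1 at 0.63. Between H929 and OPM2 2 members were called, cyclin B1 (CCNB1) at 0.55 and the checkpoint kinase BUB1 at -0.996. Between MM1S and OPM2 6 members were called: CDC25B at -0.9996, BUB1 at -1.12, the kinetochore subunit SPC24 at 0.84, the kinesin KIF20B at -1.47, the spindle pole protein ASPM at -1.003 and MKI67 at -1.11. Of all tested genes, 6.94% were called higher and 8.91% lower, 6.51% and 6.14%, and 11.8% and 8.94%, in the same order. The shares of members, given above, were under these except for the members lower in MM1S than in OPM2. In OPM2 IKZF1 knockout against untreated cells, CDC25B was at 0.25, BUB1 at 0.41, SPC24 at -0.17, KIF20B at 0.03, ASPM at -0.20 and MKI67 at -0.13, none of them called. The differences between lines were not tested with that control. The differences that involve OPM2 use its empty vector replicate 1, which stood apart, and without it SPC24 was at 0.45 and not called, while CDC25B was at -1.13 and KIF20B at -1.02.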

How the results depend on the processing

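Of the values of the named genes under alternatives, 88.4% kept their side of the threshold, and those called in the main fit also their direction. For values not called in either fit the direction was not compared, so this share includes turns of sign. The counts of called members moved more. They are given here without the share of all tested genes, which moved with the settings too, so they describe the settings and not the members. With the compared groups alone they were 31 in MM1S, 0 for each OPM2 knockout, 30 for lenalidomide, 0 for OPM2 empty vector against untreated, 1 for IKZF1 against IKZF3 knockout, 0 and 1 for the effects of H929 and MM1S against OPM2, and 38, 13 and 11 for the lines H929 against MM1S, H929 against OPM2 and MM1S against OPM2; fewer libraries then set the spread. At an adjusted p below 0.01 they were 2 in MM1S, 12 and 6 for the OPM2 IKZF1 and IKZF3 knockouts, 1 for lenalidomide, 6 for empty vector against untreated, and 1, 0 and 2 for the effects H929 against MM1S, H929 against OPM2 and MM1S against OPM2. DESeq2 called 5 in H929, 1 between the OPM2 knockouts, 6 and 11 for the effects of H929 and MM1S against OPM2, and 6 for lenalidomide against IKZF1 knockout. Without the filter on low counts the effects gave 1 for H929 against MM1S, 11 and 13 for OPM2 set against H929 and MM1S, and 10 for lenalidomide against IKZF1 knockout, and with DESeq2 size factors H929 against OPM2 gave 1. The cause of these moves was not tested. Untreated cells in place of empty vector gave 3 for IKZF1 and 1 for IKZF3 knockout, and 12 and 10 with empty vector replicate 1 also out of the fit, an alternative chosen after seeing the data. With 1 library left out in turn, the counts ran from 1 to 9 in H929, 1 to 25 in MM1S, 10 to 33 and 5 to 33 for the OPM2 IKZF1 and IKZF3 knockouts, 0 to 17 for lenalidomide, 2 to 33 for empty vector against untreated and 0 to 1 between the knockouts. For the effects they ran from 1 to 4 for H929 against MM1S, 0 to 30 and 2 to 28 for OPM2 set against H929 and MM1S, and 0 to 33 for lenalidomide against IKZF1 knockout, and for the lines from 19 to 30, 21 to 36 and 23 to 40. A lone library left in a group is assumed to vary like the other groups. Values turned their sign for KIF20A (0.35, IKZF1, and -0.24 without replicate 1) and BUB1B (0.30, IKZF3) without OPM2 empty vector replicate 2, and for TOP2A between H929 and OPM2 empty vector without replicate 1 (-0.33, and 0.79 without replicate 2). Against untreated cells 19 members changed sign for IKZF1 and 21 for IKZF3 knockout, of which 6 and 4 had been called higher against empty vector: CENPE (-0.24), CENPF (-0.34), ASPM (-0.20), ECT2 (-0.02), TOP2A (-0.30) and MKI67 (-0.13) for IKZF1, and CENPE (-0.39), KIF20B (-0.17), ASPM (-0.18) and MKI67 (-0.016) for IKZF3. Of those not called, KIF11 was at -0.26 for IKZF1 and TOP2A at -0.49 for IKZF3. With replicate 1 also out, among others, TOP2A was at -0.30 and MKI67 at -0.12 for IKZF1, and TTK at -0.26, KIF20A at -0.34, TOP2A at -0.48, MKI67 at -0.0096 and ASPM at -0.17 for IKZF3. The replicate block was fitted for empty vector against untreated, where it gave 22 called members instead of 15; the deviations of same-numbered libraries had a correlation of 0.123 over 2 pairs, which does not show that the numbers pair them. Lenalidomide and untreated share numbers too, and that block was not run. The lowest count of a member was 148, so none was near the limit of detection.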
